A study of Mus musculus with 48 samples.

Results

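Collagens are triple helices of 3 alpha chains, and each chain has its own gene, named Col with the type number and the chain number. All genes with such a symbol in the array's annotation were taken, which gave 42 collagen chain genes among the 18193 genes that have a probe set with 1 gene symbol. Each was read through its probe set with the highest mean over the arrays. Of the 42, 29 passed the filter on low values (over 2.28 on the log2 scale on at least 4 arrays), along with 13174 genes in all. By class, 9 of 11 fibrillar chains passed, all 9 basement membrane chains, and 11 of 22 chains of other types.

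The study set FVB mice, a strain predisposed to kidney lesions, against C57BL/6 mice, which are not, after removal of most of the kidney mass (subtotal nephrectomy, Nx) or a sham operation at 9 weeks of age. Whole kidneys were taken 2, 28 or 53 days after surgery. This gave 12 groups of 4 mice with 1 Affymetrix array each: FVB Nx, FVB sham, C57BL/6 Nx and C57BL/6 sham at each of the 3 days. All values below are the deposited log2 values, on which a difference of 1 is a doubling.

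Fibrillar collagens I, III and V form the tensile fibrils of interstitial tissue and are the bulk of scar matrix in kidney fibrosis. The collagen IV network is the scaffold of basement membranes. Its a1 and a2 chains are found in all of them, whereas the a3, a4 and a5 chains form the mature network of the glomerular filter and are made there by podocytes. Fibroblasts and pericytes are the main known sources of fibrillar collagen in injured kidney. RNA here came from whole kidney, in which fewer cells of a type and less RNA per cell cannot be told apart.

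The labelled tissue was checked by its markers: the proximal tubule list averaged 11.94 or more on every array. RNA of pancreas was present on 18 arrays (mean of 15 pancreas genes over 5), 16 of the 24 Nx arrays and 2 sham arrays. C57BL/6 Nx mouse 3 at day 28 stood apart from the other 3 of its group in collagens (Col1a1 at 11.12 against 8.82 to 9.20), in the fibroblast list (11.70 against 9.96 to 10.19) and in the macrophage list (10.92 against 9.18 to 9.46), and it was the only array of its group without pancreas RNA. The counts of chains called after surgery are given below with and without these arrays.

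After nephrectomy more of the measured collagen chains were higher than lower in both strains at all days. In FVB kidneys 22 of the 29 chains were higher and 2 lower at day 2, 18 higher and 1 lower at day 28, and 20 higher and 3 lower at day 53 (limma, adjusted p under 0.05). C57BL/6 kidneys had 22 higher and 2 lower at day 2, 19 and 1 at day 28, and 14 and 1 at day 53. The day 2 counts include Col11a1 and, in FVB, Col24a1, and the FVB day 53 count includes Col11a1. Both genes passed the filter on low values through Nx arrays alone. Over all 13174 genes in FVB, 54.8% were called at day 2 (24.8% higher, 30% lower), 16.2% at day 28 (7.35% higher, 8.81% lower) and 53.7% at day 53 (25.9% higher, 27.8% lower). In C57BL/6 the shares were 44.6% at day 2 (20.2% higher, 24.4% lower), 19% at day 28 (9.85% higher, 9.14% lower) and 14.7% at day 53 (8.03% higher, 6.68% lower). Without C57BL/6 Nx mouse 3 the day 28 count in that strain was 17 called, against 20 with it, and Col5a2, Col15a1 and Col4a5 lost their calls. Without the arrays with pancreas RNA, which leaves 1 Nx array per strain at days 2 and 28 and 2 at day 53, FVB had 21 higher and 2 lower, 13 and 1, and 19 and 3 at days 2, 28 and 53. C57BL/6 then had 20 higher and 2 lower, 21 and 1, and 14 and 1.

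The median Nx minus sham difference of the 29 chains was 1.87, 0.95 and 1.79 in FVB at days 2, 28 and 53, and 1.49, 0.96 and 0.58 in C57BL/6. The median over all genes lay between -0.03 and -0.01 in these comparisons.

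Counted by values that do not overlap, Nx lay above sham for 21, 18 and 20 of the 29 chains in FVB at days 2, 28 and 53, beside 20.2%, 9.2% and 22.2% of all genes, and below sham for 2, 1 and 2, beside 23.7%, 12% and 24%. In C57BL/6, Nx lay above sham for 22, 18 and 18 chains, beside 18.2%, 9.86% and 11.3% of all genes, and below sham for 1, 1 and 0, beside 22%, 9.7% and 10.4%. Chains above sham include Col11a1 at day 2 in both strains and in FVB at day 53. They also include Col24a1 in FVB at day 2.

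**Figure D1:**
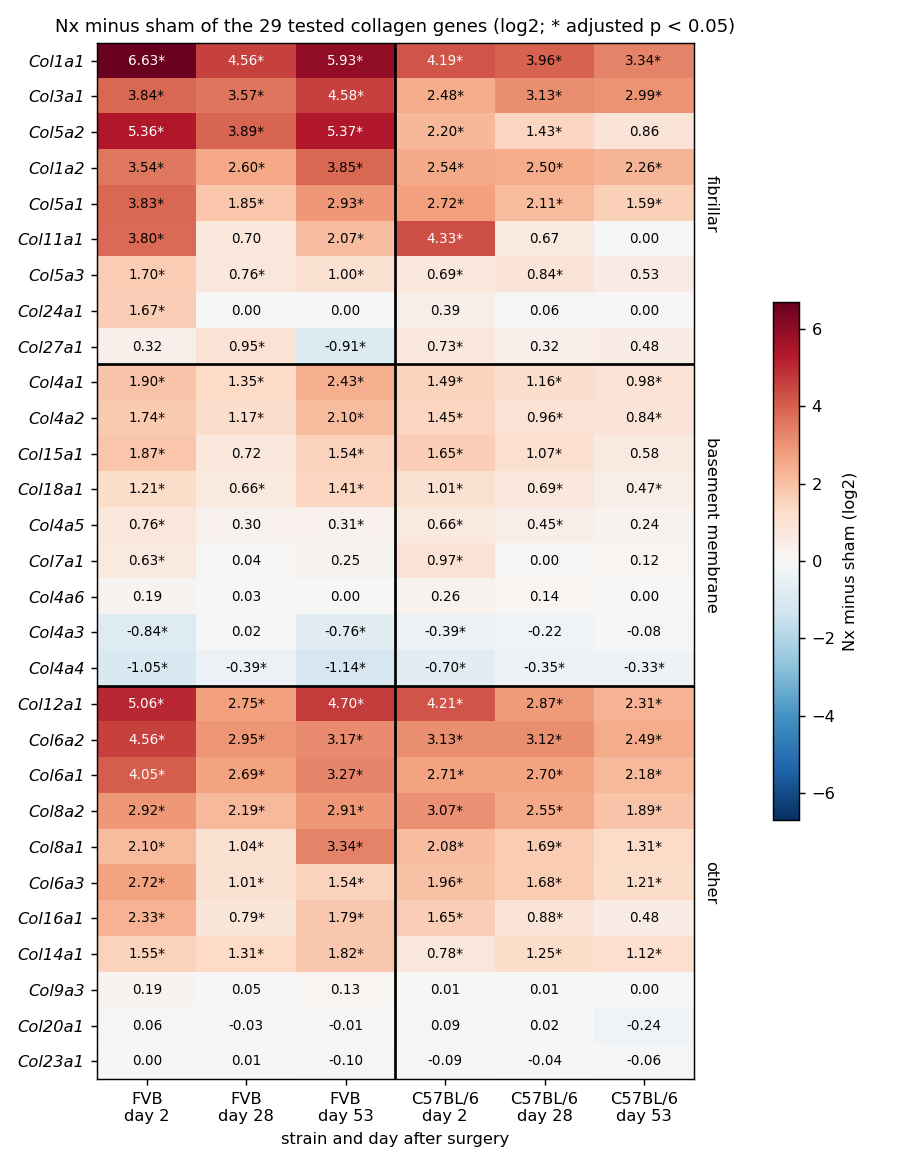
Nx minus sham difference (log2) of the 29 tested collagen genes in each strain and day, grouped by class, with an asterisk where the adjusted p was under 0.05. Most fibrillar and other chains are positive in all 6 columns, Col4a3 and Col4a4 are the negative rows of the basement membrane block, and Col9a3, Col20a1 and Col23a1 lie near 0. The numbers of Col11a1 and Col24a1 start from the lowest deposited value and are no measured fold. Those of Col5a3, Col7a1, Col8a2 and Col15a1 start from low sham values, so their sizes are uncertain.

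Among the fibrillar chains, 8 of 9 were higher and none lower at day 2 in either strain. These counts include Col11a1 and, in FVB, Col24a1, which passed the filter on low values through Nx arrays alone. At day 28 the count was 7 in FVB and 6 in C57BL/6, again with none lower. At day 53 it was 7 higher, Col11a1 among them, and 1 lower in FVB and 4 higher in C57BL/6. The shares of all genes to set beside them are those given above with the counts of all chains. Col1a1, the a1 chain of collagen I, had 11.87, 12.17, 12.38 and 12.48 in FVB Nx kidneys at day 2, against 4.25, 5.42, 5.68 and 7.02 in FVB sham kidneys. The groups were separated by more than 4 log2 units. In C57BL/6 at day 2 it had 11.33, 11.40, 11.73 and 12.24 in Nx kidneys, against 7.13, 7.26, 7.70 and 7.83 in sham kidneys. The Nx values of the strains at day 2 were thus close, while the FVB sham values lay below all C57BL/6 sham values. The difference was 6.63 (SE 0.42, adjusted p = 2e-15) in FVB and 4.19 (SE 0.42, adjusted p = 2.29e-10) in C57BL/6.

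At the later days Col1a1 had 8.17, 8.72, 9.66 and 9.85 in FVB Nx kidneys at day 28, against 3.86, 4.44, 4.50 and 5.35 in sham. At day 53 it had 9.53, 9.70, 10.18 and 10.32 in FVB Nx kidneys, against 3.57, 3.99, 4.20 and 4.25 in sham. In C57BL/6 at day 53 it had 8.02, 8.16, 9.05 and 9.15 in Nx kidneys, against 4.75, 5.23, 5.35 and 5.68 in sham. No Nx value overlapped a sham value at any day in either strain. The difference stood at 4.56 in FVB at day 28 and 5.93 at day 53, and at 3.96 and 3.34 in C57BL/6 (SE 0.42 each, highest adjusted p = 4.09e-07).

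Col1a2, the partner a2 chain of collagen I, was higher by 3.54, 2.60 and 3.85 in FVB at days 2, 28 and 53 and by 2.54, 2.50 and 2.26 in C57BL/6 (SE 0.24 each, highest adjusted p = 2.2e-08). Col3a1, the single chain of collagen III, had 13.76, 13.86, 14.10 and 14.13 in FVB Nx kidneys at day 53, against 8.91, 9.18, 9.21 and 10.21 in sham. Its C57BL/6 values at day 53 were 12.59, 12.69, 13.19 and 13.51 in Nx kidneys, against 9.55, 9.87, 9.89 and 10.72 in sham. Both strains were separated, and the Nx kidneys of FVB were above those of C57BL/6. The Col3a1 difference was 3.84, 3.57 and 4.58 in FVB and 2.48, 3.13 and 2.99 in C57BL/6 (SE 0.33 each, highest adjusted p = 6.68e-08).

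**Figure D2:**
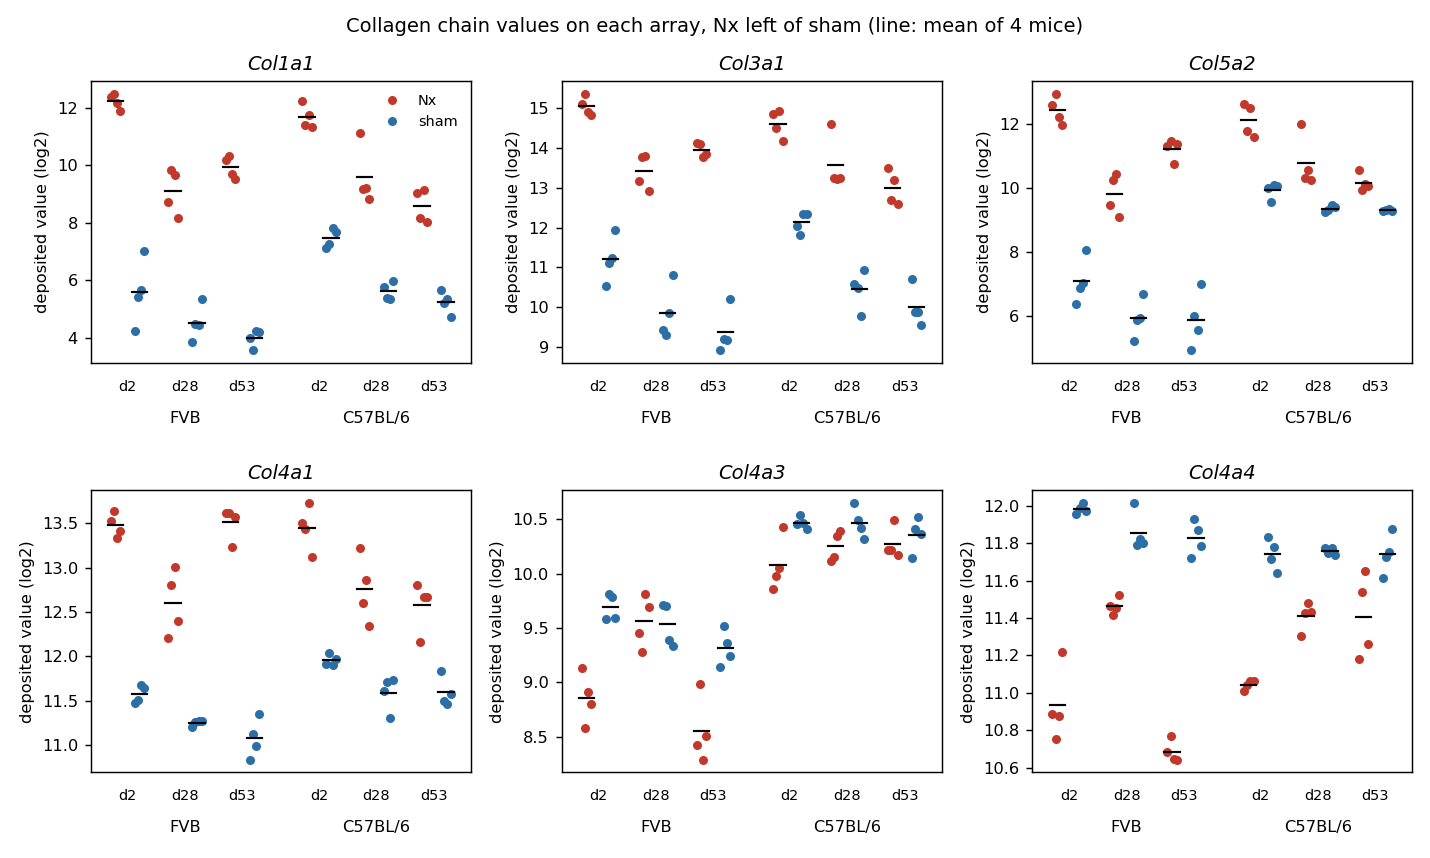
Deposited log2 value on each of the 48 arrays for 6 collagen chains, Nx (red) left of sham (blue) at each day and strain, with a line at the mean of 4 mice. Col1a1, Col3a1 and Col4a1 lie higher in Nx than in sham at every day, Col5a2 starts from lower sham values in FVB, and Col4a4 lies lower in Nx.

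Collagen V nucleates and limits the width of collagen I fibrils, and its chains did not move alike in the strains. Col5a2 had 11.97, 12.23, 12.61 and 12.94 in FVB Nx kidneys at day 2, against 6.38, 6.87, 7.01 and 8.05 in sham. In C57BL/6 at day 2 it had 11.59, 11.77, 12.51 and 12.62 in Nx kidneys, against 9.55, 10.00, 10.06 and 10.09 in sham. The Nx values of the strains overlapped and the sham values did not. At day 53 Col5a2 had 10.76, 11.32, 11.37 and 11.46 in FVB Nx kidneys, against 4.91, 5.54, 6.00 and 7.00 in sham. C57BL/6 kidneys at day 53 had 9.93, 10.07, 10.11 and 10.56 after Nx, against 9.28, 9.28, 9.31 and 9.35 in sham, separate but close. The difference was 5.36, 3.89 and 5.37 in FVB (SE 0.37, highest adjusted p = 7.63e-10). In C57BL/6 it was 2.20 (adjusted p = 4.86e-06), 1.43 (adjusted p = 0.00426) and 0.86 (adjusted p = 0.11). Without C57BL/6 Nx mouse 3 the day 28 value was 1.03 and did not pass (adjusted p = 0.056).

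Col5a1 was higher by 3.83, 1.85 and 2.93 in FVB and by 2.72, 2.11 and 1.59 in C57BL/6 (SE 0.28, highest adjusted p = 7.8e-05). Col5a3 was higher in all comparisons but C57BL/6 at day 53 (0.53, adjusted p = 0.0717), by 0.69 to 1.70. Its sham values were low, at 2.66 to 3.58. Col11a1, a minor fibrillar chain known best from cartilage, lay at 2.20, at or just above the lowest deposited value, on all 24 sham arrays. It had 5.24, 5.48, 6.53 and 6.74 in FVB Nx kidneys at day 2 and 5.52, 6.43, 6.75 and 7.43 in C57BL/6 Nx kidneys. Against the filter value, which stands in for the sham level, this was at least 13.2-fold higher in FVB and at least 19.1-fold higher in C57BL/6. At day 53 it was at least 3.97-fold higher in FVB, with 3.29 to 5.74 in Nx kidneys, while all 4 C57BL/6 Nx arrays were at 2.20. It exceeded the filter value on 15 arrays, all of them Nx, and so was tested because it was high there. Its calls are therefore given as a description. Cartilage and bone markers stayed between 2.20 and 2.40 on average on every array.

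Col24a1 had 2.34, 3.31, 3.77 and 6.07 in FVB Nx kidneys at day 2, against 2.20 on every sham array. It exceeded the filter value on 7 arrays, all of them Nx, and 1 mouse held the highest value by far, so no fold or test is given for it. Col27a1 was the fibrillar chain that did not follow the others. In FVB at day 53 it had 7.90, 7.96, 8.43 and 9.00 in Nx kidneys, against 8.81, 9.13, 9.34 and 9.67 in sham, overlapping by 1 mouse. It fell by 0.91 there (SE 0.25, adjusted p = 0.00204), after a rise of 0.95 in FVB at day 28 (adjusted p = 0.00605), and in C57BL/6 it rose at day 2 alone (0.73, adjusted p = 0.0161). On its second probe set the FVB day 53 fall stood at 1.32 on the log2 scale.

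The stretch of 250 bases before the start of 3 fibrillar genes is shown to compare their promoters, from RefSeq on GRCm38.p6. Each of these genes was higher after Nx in both strains at every day, though by sizes that differed between days. Capitals mark a match, on either strand, to one of 4 motifs searched, namely CCAAT, the TATA box (TATAAA), the GC box (GGGCGG) and a TGF-beta response motif (AGCCAGACA).
Col1a2, chr6:4505368-4505617, plus strand: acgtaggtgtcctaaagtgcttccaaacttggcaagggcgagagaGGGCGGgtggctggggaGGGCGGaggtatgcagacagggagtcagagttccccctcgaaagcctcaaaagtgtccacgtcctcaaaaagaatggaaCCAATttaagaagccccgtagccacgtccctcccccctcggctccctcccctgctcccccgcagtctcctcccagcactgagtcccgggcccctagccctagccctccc
Col3a1, chr1:45311288-45311537, plus strand: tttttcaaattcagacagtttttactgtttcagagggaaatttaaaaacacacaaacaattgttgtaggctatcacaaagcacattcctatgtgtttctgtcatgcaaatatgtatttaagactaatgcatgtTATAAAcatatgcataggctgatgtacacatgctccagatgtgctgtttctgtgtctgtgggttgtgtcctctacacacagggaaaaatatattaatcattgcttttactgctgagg
Col5a1, chr2:27886175-27886424, plus strand: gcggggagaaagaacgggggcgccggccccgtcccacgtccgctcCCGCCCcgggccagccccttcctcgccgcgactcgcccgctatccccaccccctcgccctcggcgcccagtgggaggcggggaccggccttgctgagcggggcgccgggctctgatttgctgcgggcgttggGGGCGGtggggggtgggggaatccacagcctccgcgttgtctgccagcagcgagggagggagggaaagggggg
Col1a2 holds 1 CCAAT and 2 GGGCGG matches in these bases, Col3a1 1 TATAAA and Col5a1 2 GGGCGG, so the 3 share no motif of the set. RefSeq windows of 300 bases (250 before and 50 after the start) were at hand for 33 of the 42 collagen genes, 36 windows in all. CCAAT was in 36.1% of them and in 37.4% of all 32851 windows, TATAAA in 13.9% and 13.6%, GGGCGG in 61.1% and 35.7%, and the longest of the 4 motifs in 0 of 36 collagen windows and 0.387% of all.

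Basement membrane chains moved in both directions. Of 9, 6 were higher and 2 lower at day 2 in both strains. At day 28, 3 were higher and 1 lower in FVB and 5 and 1 in C57BL/6. At day 53, 5 were higher and 2 lower in FVB and 3 and 1 in C57BL/6. Of all genes, 30%, 8.81% and 27.8% were called lower in FVB at days 2, 28 and 53. In C57BL/6 these shares were 24.4%, 9.14% and 6.68%. The counts of lower chains are close to these shares or under them, and are not read as a trait of the class. Called higher were 24.8%, 7.35% and 25.9% of all genes in FVB and 20.2%, 9.85% and 8.03% in C57BL/6. Col4a1 and Col4a2, the ubiquitous pair, rose, and Col4a3 and Col4a4, chains of the glomerular network, fell in several comparisons.

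Col4a1 had 13.23, 13.57, 13.61 and 13.62 in FVB Nx kidneys at day 53, against 10.84, 11.00, 11.13 and 11.35 in sham. In C57BL/6 at day 53 it had 12.16, 12.66, 12.66 and 12.81 in Nx kidneys, against 11.46, 11.50, 11.58 and 11.84 in sham. Neither strain overlapped, and the gap was wider in FVB. The difference was 1.90, 1.35 and 2.43 in FVB and 1.49, 1.16 and 0.98 in C57BL/6 at days 2, 28 and 53 (SE 0.15, highest adjusted p = 1.42e-05). Col4a2 rose by 1.74, 1.17 and 2.10 in FVB and by 1.45, 0.96 and 0.84 in C57BL/6 (SE 0.15, highest adjusted p = 9.75e-05).

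Col4a4 had 10.64, 10.65, 10.68 and 10.77 in FVB Nx kidneys at day 53, against 11.72, 11.79, 11.87 and 11.93 in sham. In C57BL/6 at day 53 it had 11.18, 11.26, 11.54 and 11.65 in Nx kidneys, against 11.61, 11.72, 11.75 and 11.87 in sham. The FVB groups were far apart, and the C57BL/6 groups overlapped by 1 mouse. Col4a4 fell in all 6 comparisons, by 1.05, 0.39 and 1.14 in FVB and by 0.70, 0.35 and 0.33 in C57BL/6 (SE 0.08, highest adjusted p = 0.00166).

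Col4a3 had 8.29, 8.42, 8.51 and 8.98 in FVB Nx kidneys at day 53, against 9.14, 9.24, 9.36 and 9.52 in sham. It fell by 0.84 in FVB at day 2 (SE 0.13, adjusted p = 8.94e-07), by 0.76 in FVB at day 53 (adjusted p = 4.7e-06) and by 0.39 in C57BL/6 at day 2 (adjusted p = 0.0144). The other 3 comparisons gave 0.02 in FVB at day 28 and -0.22 and -0.08 in C57BL/6 at days 28 and 53 (lowest adjusted p = 0.271). The C57BL/6 call at day 2 was lost in 1 of 8 fits that left out 1 array (adjusted p = 0.0722). A second probe set called the same 3 falls, by 1.04, 0.93 and 0.61.

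Podocyte markers were read beside these chains. Of 5, 2 were lower in FVB at day 2 and 3 in each of the other 5 comparisons, with 1 higher at day 2 in both strains. Of all genes, 30% were called lower in FVB at day 2 and 6.68% to 27.8% in the other 5 comparisons. The list's median difference was 0.01, -0.48 and -1.22 in FVB at days 2, 28 and 53 and -0.50, -0.45 and -0.53 in C57BL/6. In FVB at day 2 both chains were called lower with the list's median near 0. The list's mean was nonetheless lower in Nx (7.13 to 7.30) than in sham (7.36 to 7.79) there. At day 28 in FVB Col4a3 stood at 0.02 with 3 of 5 markers lower. The list's mean was then 6.72 to 7.27 in Nx, against 7.43 to 7.61 in sham. From day 2 to day 28 in FVB the surgery effect on both chains rose. In that comparison 1 podocyte marker was called higher and 2 lower, beside 12.8% and 12.5% of all genes. The mean of the list ran from 6.16 to 6.77 in FVB Nx kidneys at day 53, against 7.23 to 7.63 in FVB sham, and from 7.08 to 7.38 in C57BL/6 Nx, against 7.56 to 7.89 in sham. The part of podocyte number or RNA in the fall of the chains was not tested.

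Col4a3 and Col4a4 neighbour each other in the RefSeq gene order, and the bases between their annotated starts are shown because both genes fell. The stretch reads toward Col4a4 on GRCm38.p6 and holds none of the 4 motifs.
Col4a4, chr1:82586850-82586920, minus strand: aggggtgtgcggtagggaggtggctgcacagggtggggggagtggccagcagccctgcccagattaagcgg
Col4a1 with Col4a2, Col3a1 with Col5a2, and Col6a1 with Col6a2 are likewise neighbours.

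Since Col4a1 and Col4a3 share an array, the unequal change of the networks was tested within arrays. The pairs were chosen with earlier results known and use the same values as above, so this adds no independent support. Col4a3 minus Col4a1 averaged -4.96 in FVB Nx kidneys at day 53, against -1.76 in sham, a shift of -3.20 (4 mice each). Shifts in FVB at days 2 and 28 were -2.74 and -1.33, and those in C57BL/6 at days 2, 28 and 53 were -1.88, -1.38 and -1.06. Col4a4 minus Col4a2 shifted by -2.79, -1.56 and -3.24 in FVB and by -2.15, -1.30 and -1.18 in C57BL/6. In each of these 12 comparisons no Nx value overlapped a sham value (two-sided exact permutation test, p = 0.0286, the smallest 4 against 4 allow, adjusted p = 0.0361 over 48 tests of 8 pairs). This adjusted p depends on 38 of the 48 tests passing. Among them are tests of pairs that turned direction on second probe sets and are not reported as results. Second probe sets gave the same direction and call in all 12. Col4a2 has only 1 probe set, so in its comparisons with Col4a4 only Col4a4 was exchanged.

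**Figure D3:**
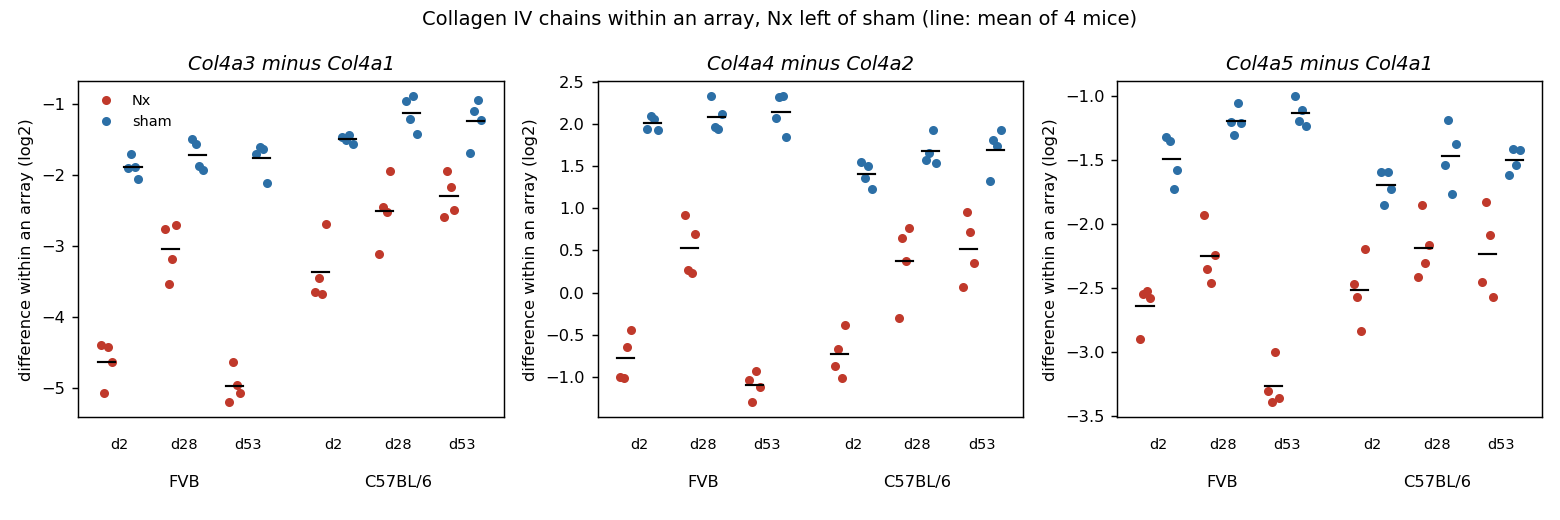
Difference of 2 collagen IV chains within each array (log2), Nx (red) left of sham (blue), with a line at the mean of 4 mice. Only the change between groups is read, not the level, since probe sets differ. Col4a3 minus Col4a1 in FVB Nx kidneys averages -4.96 at day 53, and -1.76 in sham.

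Col4a5, the third chain of the glomerular network, rose by 0.76 in FVB at day 2 (SE 0.13, adjusted p = 5.59e-06), 0.31 in FVB at day 53 (adjusted p = 0.047), and 0.66 and 0.45 in C57BL/6 at days 2 and 28. The last of these was 0.37 without C57BL/6 Nx mouse 3 and did not pass (adjusted p = 0.0808), and the FVB day 53 call was lost in 7 of 8 fits that left out 1 array. None of these calls held on its second probe set, where the FVB day 53 value was -0.02 (adjusted p = 0.961). Relative to Col4a1 it shifted by -1.14, -1.05 and -2.13 in FVB and by -0.82, -0.71 and -0.74 in C57BL/6 (adjusted p = 0.0361 each by the same exact test). On second probe sets 5 of these 6 passed.

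Col15a1 and Col18a1, the multiplexins of basement membranes, rose by 1.87 and 1.21 in FVB at day 2 and by 1.65 and 1.01 in C57BL/6. Col18a1 passed in all 6 comparisons (0.47 to 1.41, highest adjusted p = 0.00737). Col15a1 passed in 4, and gave 0.72 in FVB at day 28 (adjusted p = 0.0636) and 0.58 in C57BL/6 at day 53 (adjusted p = 0.156). Its C57BL/6 value at day 28, 1.07 (adjusted p = 0.00376), was 0.72 without Nx mouse 3 and did not pass (adjusted p = 0.0573). Sham values of Col15a1 were low, at 2.79 to 3.16, so the sizes of its rises are uncertain. Col7a1, the anchoring fibril chain, rose at day 2, by 0.63 in FVB (adjusted p = 0.00824) and 0.97 in C57BL/6 (adjusted p = 0.000153), with sham values of 2.28 to 3.26 over all groups. Col4a6, low at 2.29 to 3.18 throughout, passed in none of the 6.

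Of the 11 chains of other types, 8 were higher in both strains at days 2 and 28 and in FVB at day 53, and 7 in C57BL/6 at day 53. None was lower. Col12a1, which decorates collagen I fibrils, had 11.24, 11.73, 11.78 and 11.94 in FVB Nx kidneys at day 53, against 6.72, 6.74, 7.18 and 7.28 in sham. In C57BL/6 at day 53 it had 8.20, 8.91, 9.26 and 9.65 in Nx kidneys, against 6.35, 6.48, 6.52 and 7.43 in sham. Neither strain overlapped. The difference was 5.06, 2.75 and 4.70 in FVB and 4.21, 2.87 and 2.31 in C57BL/6 (SE 0.37, highest adjusted p = 1.7e-05). Its second probe set gave smaller differences, 2.27 in FVB at day 2 and 0.68 at day 28, with the day 28 value not past the threshold.

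Collagen VI forms beaded filaments around cells. Col6a1 had 9.21, 9.50, 9.60 and 9.97 in FVB Nx kidneys at day 2, against 4.91, 5.47, 5.54 and 6.18 in sham. In C57BL/6 it had 8.91, 9.06, 9.46 and 9.74 in Nx kidneys at day 2, against 6.16, 6.34, 6.84 and 6.99 in sham. All 3 tested chains rose in all 6 comparisons, Col6a1 by 2.18 to 4.05, Col6a2 by 2.49 to 4.56 and Col6a3 by 1.01 to 2.72 (highest adjusted p = 0.00225). The Col6a2 value in C57BL/6 at day 28 was 3.12, and 2.35 without Nx mouse 3.

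Col8a1, a short-chain network collagen of vessel walls and injured glomeruli, had 11.55, 12.28, 12.31 and 12.52 in FVB Nx kidneys at day 53, against 8.23, 8.68, 9.10 and 9.30 in sham. Its C57BL/6 values at day 53 were 9.28, 9.45, 9.76 and 10.75 in Nx kidneys, against 7.92, 8.18, 8.93 and 9.00 in sham. The FVB groups were the further apart. The difference was 2.10, 1.04 and 3.34 in FVB and 2.08, 1.69 and 1.31 in C57BL/6 (SE 0.35). The FVB day 28 call (adjusted p = 0.035) was lost in 5 of 8 fits that left out 1 array, and the C57BL/6 day 53 call (adjusted p = 0.0073) in 1 of 8. Col8a2, its partner, rose by 1.89 to 3.07. The sham values of Col8a2, 2.22 to 2.75, lay near the lowest deposited value, so this is no measured fold. Col14a1 rose by 0.78 to 1.82, and Col16a1 by 0.79 to 2.33 in 5 comparisons, with 0.48 in C57BL/6 at day 53 (adjusted p = 0.0562). Col9a3, Col20a1 and Col23a1 passed in none.

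The 13 chains that did not pass the filter were Col2a1, Col11a2, Col6a4, Col6a5, Col9a1, Col9a2, Col10a1, Col13a1, Col17a1, Col19a1, Col22a1, Col25a1 and Col26a1. Their values did not exceed 2.74 on any array. No fold is given for them.

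The effect of surgery differed between the strains mostly at day 53. Of the 29 chains, 13 had a positive FVB minus C57BL/6 difference there and 3 a negative one, beside 14.2% and 14.9% of all genes (29.1% in all). Col5a2 led with a FVB minus C57BL/6 difference of 4.50 (SE 0.52, adjusted p = 2.87e-08), followed by Col1a1 at 2.59 (SE 0.60, adjusted p = 0.000977) and Col12a1 at 2.39 (SE 0.52, adjusted p = 0.000494). Col8a1 (2.03), Col1a2 (1.59), Col3a1 (1.60), Col4a1 (1.45), Col5a1 (1.34), Col16a1 (1.31), Col4a2 (1.26), Col18a1 (0.95) and Col14a1 (0.69) also passed, as did Col11a1, whose size is not measured since its sham values lie at the lowest level. The lower ones were Col27a1 (-1.39, adjusted p = 0.00252), Col4a4 (-0.81, adjusted p = 5.01e-07) and Col4a3 (-0.68, adjusted p = 0.00463). Second probe sets did not pass for Col1a1 (1.31, adjusted p = 0.0725), Col3a1 (1.77, adjusted p = 0.0791) and Col14a1 (0.64, adjusted p = 0.167), and Col14a1 was lost in 11 of 16 fits that left out 1 array.

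**Figure D4:**
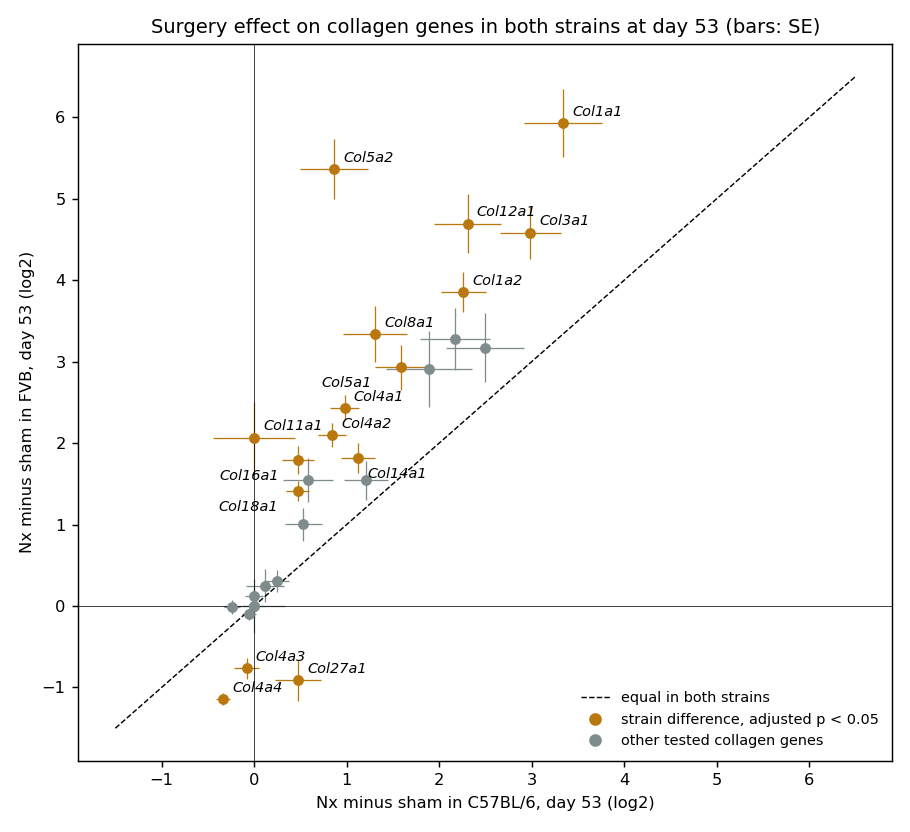
Nx minus sham difference at day 53 (log2) in C57BL/6 (x axis) and FVB (y axis) for the 29 tested collagen genes, with SE bars and a dashed line of equal effect. Orange genes had a strain difference with adjusted p under 0.05. Col5a2, at 5.37 in FVB and 0.86 in C57BL/6, lies farthest above the line, and Col27a1, Col4a3 and Col4a4 lie below it.

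At day 2 the surgery effect of 3 chains differed between the strains, beside 4.41% of all genes (2.27% higher and 2.14% lower in FVB). These were Col5a2 (3.16, SE 0.52, adjusted p = 8.58e-05), Col1a1 (2.44, SE 0.60, adjusted p = 0.0115) and Col5a3 (1.01, SE 0.29, adjusted p = 0.0341), all with a larger surgery effect in FVB. With an unadjusted p under 0.05 there were 14. Col1a1 did not pass on its second probe set (1.30, adjusted p = 0.179). The count was 5 without FVB sham mouse 5.

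At day 28 Col5a2 was the 1 chain called (2.46, SE 0.52, adjusted p = 0.0236), beside 0.129% of all genes (0.0607% higher and 0.0683% lower in FVB). It passed on its second probe set too (2.42, adjusted p = 0.0194). The call was lost in 10 of 16 fits that left out 1 array (highest adjusted p = 0.0934). Without the arrays with pancreas RNA, 11 chains were called, 10 of them lower in FVB, a comparison in which 1 Nx array was left per strain and the C57BL/6 one was mouse 3.

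Sham kidneys of the strains differed as well. Over the 12 sham arrays of each strain, 2 chains were higher and 12 lower in FVB, beside 16.9% and 15.6% of all genes (32.5% in all). Col5a2 was lower by 3.24 on the log2 scale in FVB (a difference of -3.24, SE 0.21, adjusted p = 3.96e-16), with -2.96 on its second probe set. Other low ones in FVB were Col1a1 (-1.41, adjusted p = 1.15e-05), Col6a1 (-0.95, adjusted p = 0.000596) and Col4a3 (-0.92, adjusted p = 4.48e-13). Col27a1 (0.79, adjusted p = 2.76e-05) and Col4a4 (0.14, adjusted p = 0.0108) were higher in FVB. The second probe sets of Col1a1 (-0.29, adjusted p = 0.376), Col3a1 (-0.34, adjusted p = 0.459) and Col4a4 (0.11, adjusted p = 0.0982) did not differ past the threshold. That of Col4a3 did (-0.95). Of 11 called chains with a second probe set, 6 were called in the same direction on it. The FVB minus C57BL/6 differences of the surgery effect share these sham arrays.

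Between days, the surgery effect in FVB fell and rose again. From day 2 to day 28 the effect fell for 14 chains and rose for 2, beside 12.5% and 12.8% of all genes (25.2% in all). Col11a1 and Col24a1 were among the falls, with no measured size. Others included Col12a1 (-2.31), Col1a1 (-2.07) and Col5a1 (-1.97), and Col4a3 (0.86) and Col4a4 (0.65) were the 2 that rose. From day 28 to day 53 it rose for 9 and fell for 3, beside 13.7% and 12.6% (26.3% in all). Rises included Col8a1 (2.30), Col12a1 (1.95), Col5a2 (1.47) and Col1a2 (1.26), and Col27a1 (-1.86), Col4a3 (-0.79) and Col4a4 (-0.75) fell. Both changes share the day 28 arrays. The first count was 10 without FVB Nx mouse 2 of day 28. Sham values moved between days as well. Mean Col1a1 in FVB at days 2, 28 and 53 was 12.22, 9.10 and 9.93 in Nx kidneys and 5.59, 4.54 and 4.00 in sham.

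In C57BL/6, the effect of 3 chains fell and that of 1 rose from day 2 to day 28, beside 4.02% and 4.84% of all genes (8.86% in all). These were Col7a1 (-0.97), Col16a1 (-0.77), Col4a4 (0.35) and Col11a1. The size for Col11a1 is not measured, since all sham arrays and 3 of the 4 Nx arrays at day 28 had 2.20, and the fourth, mouse 3, had 4.88. That count ran from 1 to 6 when 1 array was left out, with 6 without Nx mouse 3 of day 28 and 1 without Nx mouse 9. From day 28 to day 53 limma called 0 of 29, beside 0% of all genes, and 1 had an unadjusted p under 0.05. These effects are Nx minus sham, so few calls do not mean that the values stayed level. Mean Col1a1 in C57BL/6 at days 2, 28 and 53 was 11.68, 9.58 and 8.59 in Nx kidneys. In sham kidneys it was 7.48, 5.62 and 5.25. Mean Col4a4 in C57BL/6 sham was steadier, at 11.74, 11.76 and 11.74. The arrays of C57BL/6 Nx at day 28 include mouse 3, and all of them but mouse 3 carried pancreas RNA. Without arrays with pancreas RNA 12 chains were called lower, from mouse 3 alone at day 28.

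**Figure D5:**
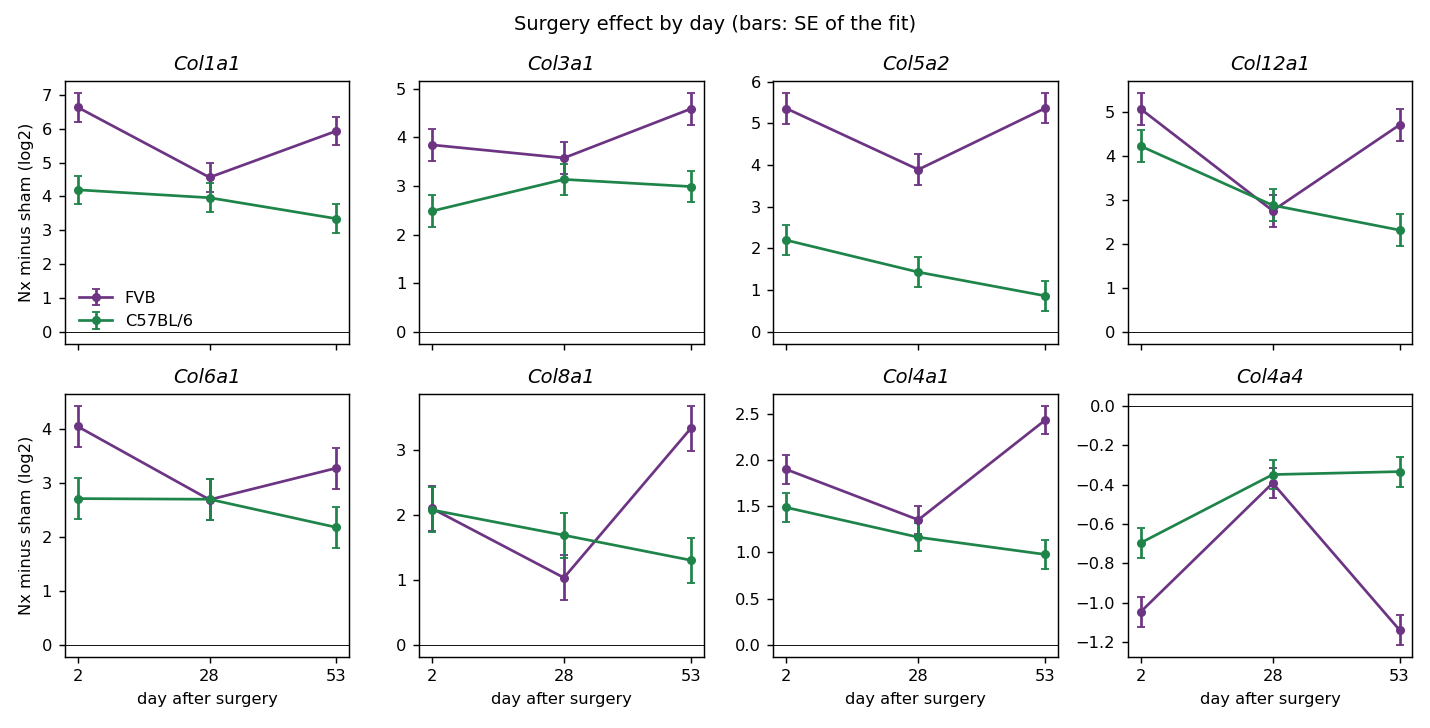
Nx minus sham difference (log2, with SE) against the day after surgery for 8 collagen chains, FVB in purple and C57BL/6 in green. In FVB the curves of Col12a1 and Col8a1 dip at day 28 and end at 4.70 and 3.34 at day 53, while the C57BL/6 curves end at 2.31 and 1.31.

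Genes that make, process and bind collagen were counted from 3 lists. The shares of all genes called are those given above with the collagen counts. Of 19 tested genes for making collagen, 13, 4 and 9 were higher in FVB at days 2, 28 and 53, with 2, 1 and 2 lower, and 11, 5 and 5 were higher in C57BL/6, with 2, 2 and 1 lower. The list's median difference was 0.72, 0.19 and 0.34 in FVB and 0.43, 0.30 and 0.10 in C57BL/6. Serpinh1, the collagen chaperone, rose by 1.74, 1.28 and 1.16 in FVB and by 1.01, 0.87 and 0.85 in C57BL/6 (SE 0.20, highest adjusted p = 0.00225). P3h2, a prolyl 3-hydroxylase that acts on collagen IV, fell by 0.99, 0.80 and 1.72 in FVB and by 1.09, 0.93 and 0.83 in C57BL/6 (SE 0.12, highest adjusted p = 1.02e-05). It was thus opposite in direction to Serpinh1 in all 6.

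Of 14 genes for processing and crosslinking, 12, 9 and 11 were higher in FVB, with 1 lower each time, and 11, 10 and 9 in C57BL/6, with 1, 0 and 1 lower. The median of this list was 2.42, 1.28 and 1.85 in FVB and 1.78, 1.26 and 1.19 in C57BL/6. Lox, the lysyl oxidase that crosslinks fibrils, rose by 4.53, 2.65 and 4.77 in FVB and by 3.49, 2.72 and 2.42 in C57BL/6 (SE 0.44, highest adjusted p = 0.000106). Fmod, a proteoglycan that binds collagen I fibrils, rose by 3.02, 3.52 and 4.24 in FVB and by 2.26, 3.18 and 2.89 in C57BL/6 (SE 0.37, highest adjusted p = 3.57e-06). Of 9 receptors and uptake genes, 6, 3 and 8 were higher in FVB and 7, 4 and 2 in C57BL/6, with 1 lower at day 2 in C57BL/6. Their median was 0.81, 0.37 and 1.11 in FVB and 0.66, 0.48 and 0.33 in C57BL/6. Mrc2, an endocytic collagen receptor, rose by 1.98, 1.16 and 2.06 in FVB and by 1.30, 1.19 and 1.11 in C57BL/6 (SE 0.17, highest adjusted p = 6.64e-06).

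Fibroblast and macrophage markers rose with the fibrillar chains. Of 8 fibroblast markers, 8, 6 and 8 were higher in FVB and 7, 7 and 6 in C57BL/6. Of all genes, 24.8%, 7.35% and 25.9% were called higher in FVB and 20.2%, 9.85% and 8.03% in C57BL/6. Dcn and Lum are in this list and in the processing and crosslinking list. The fibroblast list averaged 10.49 to 10.81 in FVB Nx kidneys at day 53, against 7.97 to 9.05 in sham. In C57BL/6 it averaged 9.86 to 10.46 in Nx, against 8.13 to 8.63 in sham. Of 6 macrophage markers, 6, 5 and 6 were higher in FVB and 6, 5 and 5 in C57BL/6. Their part in the collagen results was not tested.

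Markers of other cell types were counted as well, to be read beside the shares of all genes. Called higher were 24.8%, 7.35% and 25.9% of all genes in FVB at days 2, 28 and 53 and 20.2%, 9.85% and 8.03% in C57BL/6. Called lower were 30%, 8.81% and 27.8% in FVB and 24.4%, 9.14% and 6.68% in C57BL/6. Of 6 proximal tubule markers, 4, 1 and 5 were lower in FVB at days 2, 28 and 53 and 4, 3 and 2 in C57BL/6, with 0, 1 and 0 higher in FVB and 1, 2 and 2 in C57BL/6. The FVB minus C57BL/6 difference at day 53 was called negative for 6 of 6 (median -1.03), beside 14.9% of all genes. All 4 fat markers were higher in C57BL/6 at days 28 and 53 (medians 3.02 and 3.88), against 0 and 1 in FVB (medians 1.00 and 1.01). Of 5 skeletal muscle markers, 3 were higher in FVB at day 53 (median 1.57) and 0 in C57BL/6. Of 6 endothelial markers, 3, 0 and 3 were lower in FVB and 3, 3 and 1 in C57BL/6. Higher were 1, 2 and 1 of them in FVB and 0, 1 and 1 in C57BL/6. Of 4 smooth muscle markers, 1 was higher in each comparison, near the share of all genes in FVB at days 2 and 53. Of 3 mesothelial markers, 2, 1 and 1 were higher in FVB and 2, 2 and 1 in C57BL/6. Of 15 pancreas genes, 14, 0 and 1 were higher in FVB and 10, 0 and 0 in C57BL/6. The few calls at days 28 and 53 do not mean that this RNA was gone. Median differences of the list were 8.10, 5.90 and 4.21 in FVB and 6.62, 6.58 and 3.86 in C57BL/6. The list mean was over 5 on 3, 3 and 2 of the 4 Nx arrays in each strain. The part of these cell types in the collagen results was not tested either.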

How the data were processed

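Whole-kidney RNA of 48 mice was measured on 1 array each, 4 mice per group; the number of arrays limits the precision. The deposited values are log2, as judged from the values themselves (2.20 to 16.2). The submitters' processing notes name MAS5 with no role, and normalization is not given in the sources used here. Of all values, 32.1% lie at the lowest value, so folds from there are lower bounds. Genes were named by the platform annotation. A gene was tested where its probe set passed the 40th percentile (2.28) on 4 arrays.

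limma 3.58.1 (R 4.3.3) fitted 12 group means over 48 arrays (36 residual degrees of freedom, eBayes with intensity trend), with 14 contrasts and Benjamini-Hochberg adjustment over 13174 genes. In simulated data for FVB at day 2 it recovered 94% of genes changed by log2 1 and 99% of those changed by log2 2. It also called 13 unchanged genes. Only genes of higher mean were changed and the noise had no lowest value, so this does not cover chains near the lowest value. Chain pairs were tested within arrays by exact permutation (scipy 1.17.1). P-values treat each mouse as a replicate. All collagen members could be named; the 19 chains with single values, the marker and pathway lists and the pairs were chosen with earlier results of these data known. Outside the collagens, genes are from the 6 smallest p-values of a list. Alternatives covered scaling, filters, probe sets, array weights, pancreas RNA and left-out arrays.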

Additional observations from a re-analysis of the deposited data

Results flagged for a closer look

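Single arrays were set against the other 3 of their group for 19 chains in 12 groups, 228 tests, in which chance alone flags about 1 in 20. In 21 of the tests the value of a chain on 1 array lay far from the others. Of these values, 6 were from C57BL/6 Nx mouse 3 at day 28, which had Col1a1 at 11.12 (others 8.82 to 9.20), Col1a2 at 14.20, Col3a1 at 14.60, Col5a1 at 9.72, Col6a1 at 10.08 and Col6a2 at 11.27, all above the other mice. Other high values were Col4a3 at 10.50 in C57BL/6 Nx mouse 4 at day 53, Col12a1 at 7.43 in C57BL/6 sham mouse 1 at day 53, and Col4a4 at 12.01 in FVB sham mouse 1 at day 28. Low values were Col5a2 at 9.55 in C57BL/6 sham mouse 2 at day 2, Col4a1 at 13.23 in FVB Nx mouse 7 at day 53 and at 11.20 in FVB sham mouse 1 at day 28, and Col15a1 at 2.79 in FVB sham mouse 6 at day 53. Col14a1 was low at 9.69 in FVB Nx mouse 2 at day 28, 9.18 in C57BL/6 sham mouse 1 at day 2 and 8.54 in C57BL/6 sham mouse 5 at day 28. Col4a6, close to the lowest value everywhere, was flagged 5 times: 3.03 and 2.37 in FVB Nx mouse 2 at day 2 and mouse 7 at day 28, 3.18 in C57BL/6 Nx mouse 4 at day 28, 2.64 in C57BL/6 sham mouse 3 at day 28 and 2.38 in C57BL/6 sham mouse 1 at day 53.

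The FVB minus C57BL/6 difference of the surgery effect passed limma's test 20 times. At day 2 these were Col5a2 at 3.16, Col1a1 at 2.44 and Col5a3 at 1.01, and at day 28 Col5a2 at 2.46. At day 53 the positive ones were Col5a2 at 4.50, Col1a1 at 2.59, Col12a1 at 2.39, Col11a1 at 2.07, Col8a1 at 2.03, Col3a1 at 1.60, Col1a2 at 1.59, Col4a1 at 1.45, Col5a1 at 1.34, Col16a1 at 1.31, Col4a2 at 1.26, Col18a1 at 0.95 and Col14a1 at 0.69. The negative ones were Col27a1 at -1.39, Col4a4 at -0.81 and Col4a3 at -0.68. The Col11a1 value starts from the lowest deposited value in all sham groups.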

How the results depend on the processing

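The calls of the 19 chains were recomputed in 4350 combinations of comparison and setting: 4225 stayed on the same side of the threshold, 78 lost the call, 45 gained one and 2 changed sign with a call on one side. Changes of sign among values called under neither setting are within the 4225 and were not counted. Counts of called chains stayed within 1.5 times in the 6 surgery comparisons and the day 53 strain difference under all settings run. The count for the FVB change from day 28 to 53 did so too (12 called, 10 to 16 in other settings). Elsewhere the counts moved. For the strain difference at day 2 (3 called) array weights gave 5 and left-out arrays 2 to 5. At day 28 (1 called) the arrays of that comparison alone gave 0, arrays without pancreas RNA 11, and left-out arrays 0 to 1. For the change from day 2 to 28, left-out arrays gave 10 to 19 in FVB (16 called) and 1 to 6 in C57BL/6 (4 called), where its own arrays alone gave 2 and array weights 8. From day 28 to 53 in C57BL/6 (0 called) arrays without pancreas RNA gave 12, and left-out arrays 0. In sham kidneys (14 called) second probe sets gave 9. Col4a2's day 28 strain difference turned to -0.82 (adjusted p = 0.0243) without pancreas arrays, and Col4a5 in FVB at day 53 to -0.023 on its second probe set.

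Of 48 chain pair shifts, second probe sets turned 18 that passed with one set or both. Col4a2 and Col6a1 have only 1 probe set each, so in their pairs only the other chain was exchanged. Col1a2 minus Col1a1 became 0.32, 1.31 and 1.97 in FVB at days 2, 28 and 53 and 0.40 and 0.75 in C57BL/6 at days 28 and 53. Col3a1 minus Col1a1 became 0.61, 1.70 and 2.09 in FVB and 0.0503, 1.17 and 1.63 in C57BL/6. Col5a2 minus Col1a1 became 0.73, 1.12 and 1.58 in FVB, Col6a1 minus Col3a1 -1.84 and -1.31 at day 2 in FVB and C57BL/6, and Col4a2 minus Col4a1 0.31 and 0.0604 in C57BL/6 at days 2 and 28. That last pair also turned, passing with neither set, in FVB at days 2 and 28 (0.15 and 0.07). Those pairs are therefore not reported as results. Leaving out an array was not run for pairs, since 3 against 4 allow no p below 0.0571, nor was leaving out arrays with pancreas RNA.

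Mouse numbers recur between Nx and sham, but no label says that they pair animals, and over 10 same-numbered pairs deviations correlated between -0.251 and 0.378. With mouse number as a replicate block (correlation 0.126), counts were 24, 19 and 23 in FVB and 24, 20 and 16 in C57BL/6 for surgery, and 4, 1 and 16 for the strain difference. Between days the block gave 19 and 12 in FVB and 4 and 0 in C57BL/6, and 14 in sham kidneys.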
